A study of Mus musculus with 4 samples.

Results

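Mitochondrial ribosomal proteins were examined in RNA-seq counts of E13.5 mouse retinas. Members were all genes whose symbol starts with Mrpl or Mrps followed by a digit, with pseudogene symbols left out. This gave 77 of the 24062 genes in the count table, 48 with a large-subunit symbol (Mrpl) and 29 with a small-subunit symbol (Mrps). All 77 passed the filter on low counts and were among the 15762 genes tested. The study compared 2 wildtype libraries with 2 libraries of Nrf1 f/f;Six3-Cre retinas (Nrf1-CKO in the labels, "mutant" hereafter), in which Cre driven by Six3 in retinal progenitors removes a floxed exon of Nrf1. All libraries came from embryos at E13.5 of a C57BL/6 129 mixed strain, and retinas of several littermates were pooled for RNA. The paper reports loss of Nrf1 protein in the central mutant retina and does not describe separating the central part before RNA extraction. How far cells without the deletion enter the values was not tested. The methods say that the experiment was done in duplicate but not whether the duplicates were separate pools of retinas, so the p-values below measure the spread between these libraries, which may be technical.

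Mitochondria translate the few proteins encoded by their own DNA on a ribosome whose RNAs are mitochondrial and whose proteins are all encoded in the nucleus. The small subunit decodes the mRNA, and the large subunit forms peptide bonds and passes the chain into a tunnel that opens at the inner membrane. Some of its proteins have a counterpart in the bacterial ribosome and others are found only in mitochondria. Nrf1, the transcription factor nuclear respiratory factor 1, is known for binding GC-rich palindromes in promoters of nuclear genes for mitochondrial proteins. Whether the mitoribosomal genes move together when Nrf1 is deleted, and whether the large and the small subunit differ, is the question that this comparison addresses.

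Depth was similar in all libraries, from 74577660 to 85933945 reads counted on genes. Levels are given as CPM, reads of a gene relative to the library's total of gene reads, scaled with edgeR's TMM factors. The Nrf1 count covers the whole gene and not only the deleted exon, and it was not a check of the genotype. Reads per exon were not examined, and the cause of the level count below was not tested. The paper checked the deletion by immunostaining for Nrf1 protein. Nrf1 had a log2 fold change of -0.03 (adjusted p = 0.794, quasi-likelihood test of edgeR), and the genotypes overlapped, with 9052 and 7789 reads in wildtype and 8594 and 8284 in the mutant. Retinal ganglion cell markers fell in the mutant for 7 of 8 genes at the thresholds of the study, a change of 1.4-fold or more with an adjusted p of 0.2 or less (Rbpms changed by less than that), and their summed level went from 1400 and 1604 CPM in wildtype to 547 and 429 CPM. By the same thresholds, lens markers were higher for 8 of 8 genes, with summed levels of 134 and 373 CPM in wildtype and of 7837 and 3190 CPM in the mutant. Macrophage markers (7 of 7) and pigment epithelium markers (5 of 5 tested) were higher as well, as were 4 of 6 mesenchyme, 3 of 5 endothelium (1 was lower) and 2 of 4 tested erythroid markers. Among all tested genes, 8.04% fell and 12.8% rose by these thresholds. Of 10 retinal progenitor markers, Ccnd1 and Fgf15 fell and the other 8 were not called, with Pax6 at 633 to 669 CPM and Six6 at 337 to 375 CPM over the libraries. Their part in the members' values was not tested, and in such bulk samples fewer cells of a type and less RNA per cell cannot be told apart.

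Mitochondrial ribosomal protein genes changed little in the mutant retinas. The study called genes that changed by 1.4-fold or more with an adjusted p of 0.2 or less. By that rule 1 of 77 members fell, Mrpl32, and none rose in edgeR's quasi-likelihood test, with adjustment over all genes tested. Among all tested genes, 8.04% fell and 12.8% rose by the same rule. With an adjusted p of at most 0.05 and no minimum fold, 4 members fell (Mrpl32, Mrpl14, Mrpl42 and Mrpl20) and 1 rose (Mrpl19), against 10.9% and 11.9% of all tested genes. Without adjustment, 17 of 77 members had p of at most 0.05, against 34.8% of all tested genes, so the members were not above that share. The members' log2 fold changes lay between -0.93 and 0.29 with a median of -0.08. The median over all tested genes was 0.00073.

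The direction leaned downward by a small amount. The log2 fold change was negative for 58 of 77 members (75.3%), against 49.9% of all tested genes. Upper-quartile scaling moved the median of all tested genes to 0.0403, and with it 49 of 77 members and 44.0% of all tested genes were negative. Both mutant libraries lay below both wildtype libraries for 32 members, above them for 7, and the genotypes overlapped for 38. Over all tested genes, both mutant libraries lay below in 31.6% and above in 30.9%. The median size of a member's log2 fold change, whatever its sign, was 0.124, and for all tested genes it was 0.219. The 95% interval of the fold change stayed within 1.4-fold in either direction for 61 of 77 members, which was the case for 7343 of 15762 tested genes. For the remaining 16 members the interval reached 1.4-fold, so a change of that size remains possible for them.

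**Figure D1:**
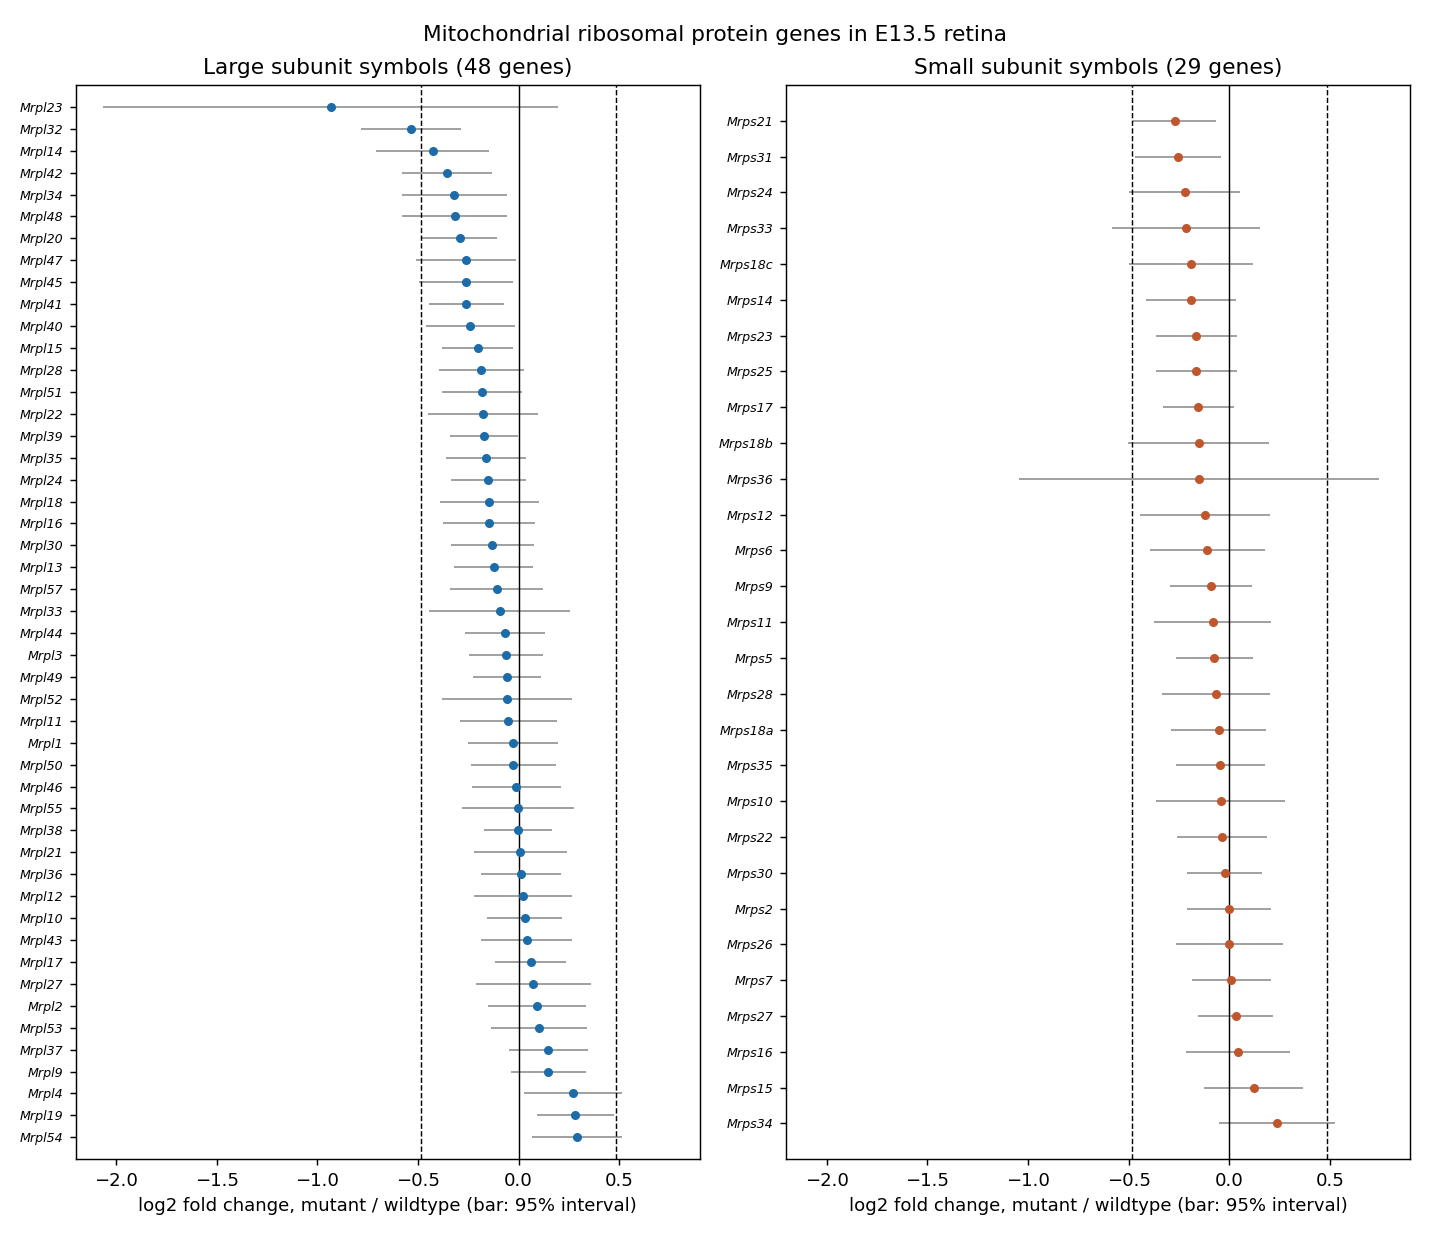
Log2 fold change (mutant over wildtype) of each member, with large-subunit symbols on the left and small-subunit symbols on the right. Points are estimates from edgeR, bars are 95% intervals, and dashed lines mark a 1.4-fold change in either direction. Most points lie slightly left of 0, and the estimates for Mrpl23 and Mrpl32 lie beyond the left dashed line.

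The median log2 fold change was -0.0816 over the 48 large-subunit genes and -0.0831 over the 29 small-subunit genes, a difference of 0.0015. The between-library SD of this difference was 0.042, so it was far smaller than the spread between replicates. When single libraries were left out, the difference lay between -0.0541 and 0.0425, and no difference between the subunits could be seen at this spread. Of the large-subunit genes, 34 had a negative and 14 a positive value, and of the small-subunit genes 24 and 5. When subunits were assigned by position in the mammalian mitoribosome, which moves Mrps30 and Mrps18a to the large subunit and leaves out Mrps36, the medians were -0.0649 and -0.0871. The summed level of the large-subunit genes was 1776 and 1770 CPM in wildtype and 1638 and 1741 CPM in the mutant libraries. For the small-subunit genes the sums were 804 and 821 CPM in wildtype and 744 and 798 CPM in the mutant. In both subunits each mutant sum lay below both wildtype sums, by less than the gap between the mutant libraries for the second of them. The ratio of large-subunit to small-subunit sums was 2.18 ± 0.0371 in wildtype and 2.19 ± 0.0146 in the mutant (SD, n = 2), and the genotypes overlapped.

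**Figure D2:**
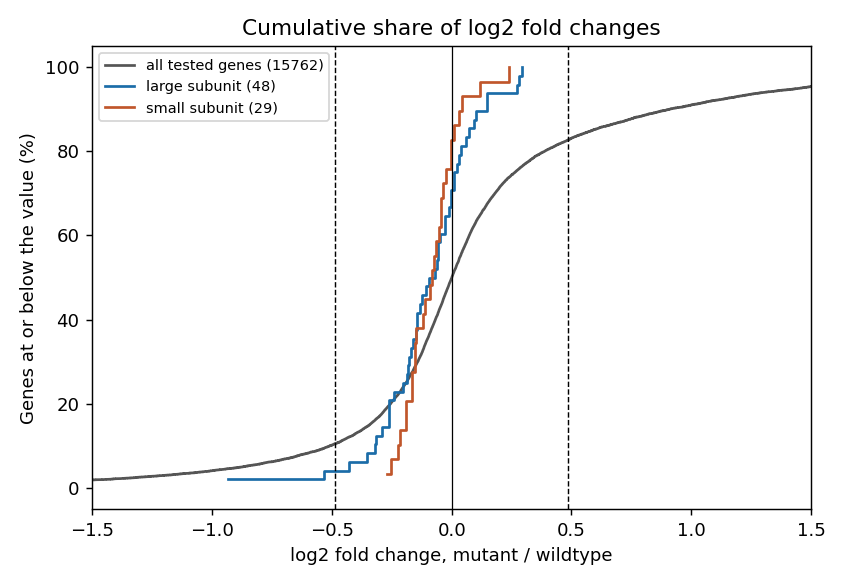
Cumulative share of genes (percent) against log2 fold change for all tested genes, the 48 large-subunit genes and the 29 small-subunit genes, with dashed lines at a 1.4-fold change and the most extreme of all tested genes beyond the axis. The curves of both subunits are steeper than the curve of all tested genes and reach their medians slightly left of 0.

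All 5 members called at an adjusted p of at most 0.05 were large-subunit genes. None of the 29 small-subunit genes passed it, but with scaling by library size only Mrps21 did (adjusted p = 0.0479, edgeR). The small-subunit genes lay between -0.27 (Mrps21) and 0.24 (Mrps34), and 2 of them had an unadjusted p of at most 0.05. This was the case for 15 of 48 large-subunit genes, near the 34.8% of all tested genes. Whether calls were more frequent in the large subunit was not tested.

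Mrpl32 was the member with the clearest change. It encodes a bacterial-type protein of the large subunit whose precursor is trimmed by the m-AAA protease of the inner membrane before it joins the ribosome. The gene lies on chromosome 13 of GRCm38 from 14608184 to 14613165 on the minus strand. Its level was 31.9 and 27.5 CPM in the wildtype libraries and 21.3 and 19.7 CPM in the mutant libraries. Both mutant libraries lay well below both wildtype libraries. The log2 fold change was -0.53 with a standard error of 0.11 and a 95% interval from -0.782 to -0.284 (adjusted p = 0.00821, edgeR). Since the interval holds changes smaller than 1.4-fold, a test against a 1.4-fold change did not call it. On the authors' normalized values the log2 fold change was -0.42, below 1.4-fold. Without the first wildtype library it was -0.42 too (adjusted p = 0.078).

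Mrpl14, Mrpl42 and Mrpl20 were the other members called lower at an adjusted p of at most 0.05, each with a change smaller than 1.4-fold. Mrpl14 encodes a bacterial-type protein at the interface between the subunits, to which the assembly factor Malsu1 binds. It was at 12.5 and 12.2 CPM in wildtype and at 9.24 and 9.11 CPM in the mutant, with replicates that lay close together, and fell with a log2 fold change of -0.43 (adjusted p = 0.0372). Mrpl42, a protein of the large subunit with no bacterial counterpart, went from 39.0 and 35.8 CPM to 27.5 and 31.1 CPM, a log2 fold change of -0.35 (adjusted p = 0.0321). Mrpl20 is the counterpart of a bacterial protein that binds rRNA early in the assembly of the large subunit. It went from 44.9 and 43.6 CPM to 37.2 and 35.1 CPM, a log2 fold change of -0.29 (adjusted p = 0.033; all from edgeR). These 3 calls depended on the libraries and the scaling. None of them held an adjusted p of at most 0.05 when the first or the second wildtype library was left out, and with upper-quartile scaling their adjusted p was 0.054, 0.0513 and 0.0575 in the same order (edgeR).

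Mrpl19, a bacterial-type protein of the large subunit, was the member called higher. Its level was 49.1 and 51.2 CPM in wildtype and 57.5 and 64.5 CPM in the mutant, with no overlap, for a log2 fold change of 0.28 (adjusted p = 0.043 from edgeR). The gene overlaps Gcfc2 in the annotation. Of the 4 fits with a library left out, only the one without the first mutant library kept its adjusted p at or below 0.05. Mrpl54 and Mrpl4 were of the same size with log2 fold changes of 0.29 (adjusted p = 0.0648) and 0.27 (adjusted p = 0.107) and did not pass. Mrpl54 passed an adjusted p of 0.05 with DESeq2, upper-quartile scaling and the replicate block, and both genes passed it without the first mutant library. Mrpl4, a protein of the peptide tunnel, was at 26.0 and 24.4 CPM in wildtype and at 28.0 and 32.9 CPM in the mutant. The highest small-subunit value belonged to Mrps34, at 15.3 and 19.2 CPM in wildtype and at 20.2 and 20.5 CPM in the mutant (adjusted p = 0.227).

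**Figure D3:**
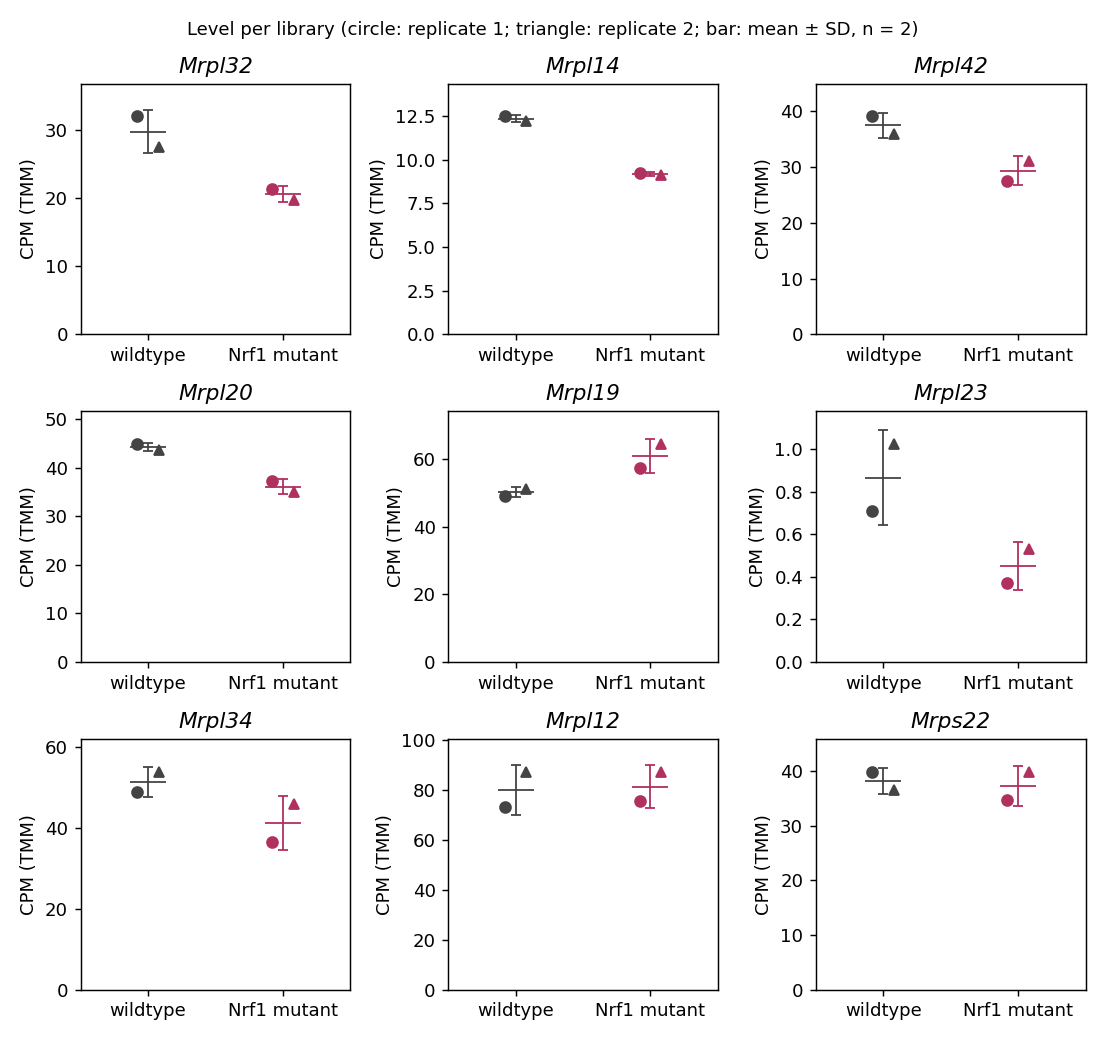
Level in CPM, from 0, of 9 members in each library, with wildtype on the left and the Nrf1 mutant on the right of each panel. Circles are replicate 1, triangles replicate 2, and bars show the mean ± SD (n = 2). Mrpl32, Mrpl14, Mrpl42, Mrpl20, Mrpl34 and Mrpl23 are lower in both mutant libraries, Mrpl19 is higher in both, and Mrpl12 and Mrps22 overlap.

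Mrpl23 had the lowest log2 fold change of all members, -0.93, but did not pass the test (adjusted p = 0.226). On the authors' normalized values it was -0.19, and Mrpl32 was lower than Mrpl23 there. It was counted with 62 and 76 reads in wildtype and with 31 and 44 reads in the mutant, on average the fewest of all members. The genome holds a processed pseudogene of Mrpl23, and reads that match both copies are not counted as unique, so the level is uncertain. Mrps36, with 92 and 104 reads in wildtype and 110 and 73 reads in the mutant, also has processed pseudogenes and overlapped between genotypes (log2 fold change -0.15, adjusted p = 0.831). Despite its symbol, Mrps36 encodes a subunit of the alpha-ketoglutarate dehydrogenase complex and is not a protein of the mitoribosome.

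Members were next grouped by their place in the ribosome. The 7 proteins grouped as lying along the peptide tunnel or around its exit (Mrpl4, Mrpl17, Mrpl22, Mrpl23, Mrpl24, Mrpl45 and Mrpl47) had a median log2 fold change of -0.18. Both mutant libraries lay below both wildtype libraries for 5 of them and above for Mrpl4 and Mrpl17, against 31.6% and 30.9% of all tested genes, and none was called. This group of 7 was formed after the data were seen. Mrpl45, which holds the ribosome at the inner membrane, was at 45.7 and 43.4 CPM in wildtype and at 33.8 and 40.6 CPM in the mutant (log2 fold change -0.26, adjusted p = 0.104). The 5 short bacterial-type proteins Mrpl32 to Mrpl36 had a median of -0.16, with Mrpl32 the lowest and Mrpl36 at 0.01. The 6 members grouped here with the central protuberance, a prominence of the large subunit, need not be all of its proteins. They had a median of -0.08, and Mrpl48 was the lowest of them at -0.32 (adjusted p = 0.0833, edgeR). In contrast, Mrpl10, Mrpl11 and Mrpl12, the stalk that recruits translation factors, lay between -0.05 and 0.03 and overlapped between genotypes.

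Proteins with and without a bacterial counterpart gave similar values. The median log2 fold change was -0.09 over 46 members classed as having a counterpart, of which 33 were negative. It was -0.06 over 30 members classed as found only in mitochondria, of which 24 were negative. This second class holds Mrps18a and Mrps18b, although they are related to a bacterial protein. Of the 3 members related to bacterial protein S18, Mrps18a had a log2 fold change of -0.05, Mrps18b of -0.15 and Mrps18c of -0.19, and all overlapped between genotypes. Mrpl12, which also binds the mitochondrial RNA polymerase, was at 72.9 and 87.0 CPM in wildtype and at 75.3 and 87.2 CPM in the mutant, nearly the same range. Mrpl44, a mitochondria-specific protein with a fold like that of RNase III, was at 30.4 and 30.3 CPM in wildtype and at 29.1 and 28.8 CPM in the mutant (log2 fold change -0.07, adjusted p = 0.632). Mrps12, the counterpart of the bacterial decoding-site protein S12, overlapped between genotypes at 20.6 and 27.9 CPM in wildtype and 22.0 and 22.6 CPM in the mutant. Mrps22 (log2 fold change -0.04) and Mrps30 (-0.02), both without bacterial counterparts, overlapped too, and both values were so close to 0 that the shift of all genes under upper-quartile scaling turned their sign.

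Levels between members were compared as CPM per kilobase of annotated exon. They spanned 72.4-fold without Mrpl23, whose level is uncertain, and Mrps36, which is not in the complex, and 563-fold with them. The annotated exon length covers all transcripts of a gene and had a median of 2255 bp, longer than the main mRNA of many members, so genes with long minor transcripts appear too low. Mrpl34 had the highest mean level, 76.1 CPM per kilobase, followed by Mrpl54 with 70.9 and Mrpl12 with 52.6. The first 2 changed places between genotypes. Mrpl34 was at 80.2 and 88.7 CPM per kilobase in wildtype and at 59.9 and 75.4 in the mutant, and Mrpl54 was at 59.6 and 67.9 in wildtype and at 72.7 and 83.3 in the mutant. Neither change reached 1.4-fold (adjusted p = 0.0803 for Mrpl34 and 0.0648 for Mrpl54 from edgeR). The value of Mrpl34 rested on the mutant libraries, with a log2 fold change of -0.50 (adjusted p = 0.00259, called at the study thresholds) without the second and -0.16 without the first, and its adjusted p was 0.012 with the replicate block. The highest small-subunit genes were Mrps21 at 39.6, Mrps23 at 28.9 and Mrps12 at 22.4 CPM per kilobase. Mrps21 was at 31.0 and 33.1 CPM in wildtype and at 26.1 and 26.9 CPM in the mutant, the lowest log2 fold change of the small subunit (-0.27, adjusted p = 0.0638). At the lower end were Mrpl23 at 0.135, Mrps36 at 0.914, Mrps10 at 1.05, Mrpl48 at 1.81, Mrpl33 at 2.12 and Mrps35 at 3.46 CPM per kilobase.

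The downward lean was not equal in the mutant libraries. In the first mutant library 60 of 77 members were lower than in the second, with a median log2 difference of -0.059, whereas 42 of 77 were higher in the first wildtype library than in the second (median 0.0166). For 35 members the difference between the wildtype libraries was larger than the difference between genotypes, and for 33 members that between the mutant libraries was larger. The first mutant library is also the one with the higher lens marker sum, 7837 against 3190 CPM. Without it, 47 of 77 members were negative (50.5% of all tested genes), and the medians were -0.0756 for the large and -0.0558 for the small subunit. Without the second mutant library, 61 of 77 were negative (50.8% of all tested genes), and the medians were -0.122 and -0.137. The part of lens tissue in this difference was not tested.

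**Figure D4:**
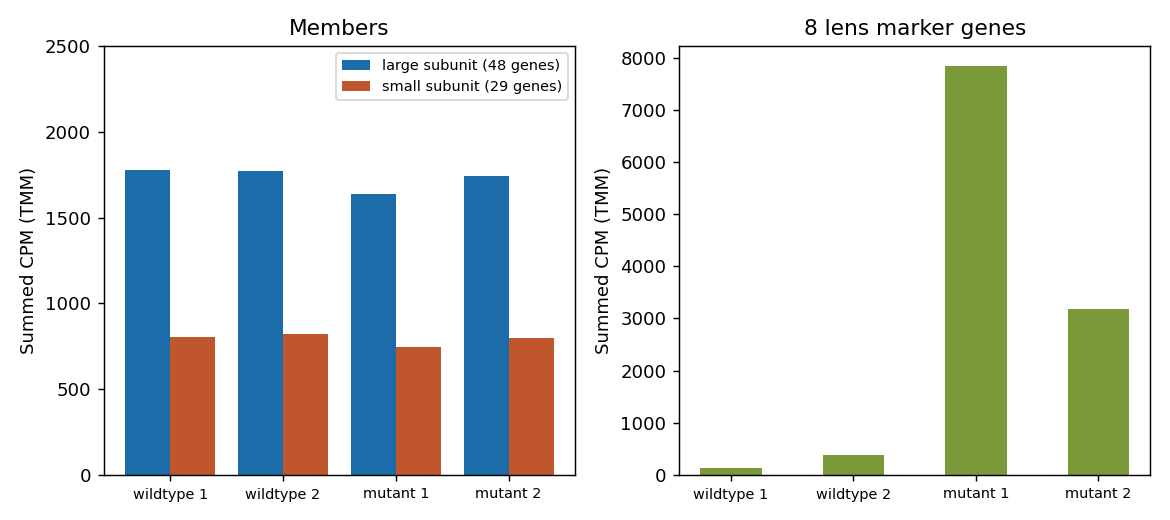
Summed level in CPM per library of the 48 large-subunit and 29 small-subunit genes (left) and of 8 lens marker genes (right), as bars from 0. The first mutant library has the lowest sums of both subunits, 1638 and 744 CPM, and the highest lens sum, 7837 CPM.

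Promoters were searched because Nrf1 binds a known palindrome. RefSeq windows of GRCm38.p6, from 250 bases before to 50 bases after the start, were available for 68 of the 77 members. The letters GCGCATGCG were searched on both strands, and the match overlaps its own reverse complement where the palindrome is complete. They were found in 7 of 68 members (10.3%), in 425 of 11602 tested genes (3.66%) and in 527 of 27025 genes with a window (1.95%). Of these members, 6 were large-subunit genes and 1 was a small-subunit gene. The stretches are shown because they let the member with the largest called change be compared with members that carry the same letters, with the matched bases in capitals and 10 bases or fewer on each side, all before the RefSeq start and written 5′ to 3′ on the gene's strand.
Mrpl32, chr13:14613105-14613134, minus strand: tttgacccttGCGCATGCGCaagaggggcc
Mrpl32, chr13:14613042-14613070, minus strand: gcggacttaaCGCATGCGCtcagcccgcg
Mrpl22, chr11:58171621-58171649, plus strand: gcctcggactGCGCATGCGtatagtcagc
Mrpl39, chr16:84735350-84735379, minus strand: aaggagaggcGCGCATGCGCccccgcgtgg
Mrps18b, chr17:35916646-35916674, minus strand: aacggcccgaCGCATGCGCactgggagca
Mrpl10, chr11:97041437-97041465, plus strand: cccagctccaCGCATGCGCatagcggccc
Mrpl17, chr7:105811088-105811108, minus strand: ccgagttactGCGCATGCGtc
Mrpl9, chr3:94443298-94443327, plus strand: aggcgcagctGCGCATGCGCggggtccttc

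Mrpl32 was the only 1 of the 68 members with these letters in 2 separate places, which begin 87 and 23 bases before the RefSeq start. The GENCODE annotation starts Mrpl32 further upstream, at 14613165, so by it both places lie inside the gene. The stretch of Mrpl39 lies inside its GENCODE gene too. Whether these places are upstream of the start in use therefore depends on the annotation. Among tested genes, 31 of 11602 (0.267%) had 2 or more such places, and their median log2 fold change was -0.21. The 7 members with the letters did not move alike. Besides Mrpl32 at -0.53, Mrpl22 was at -0.18, Mrpl39 at -0.17 and Mrps18b at -0.15, whereas Mrpl10 was at 0.03, Mrpl17 at 0.06 and Mrpl9 at 0.15, and Mrpl32 alone was called. The median log2 fold change was -0.15 for these 7 and -0.09 for the 61 members without the letters. Over all tested genes it was -0.14 for the 425 with and 0.0046 for the 11177 without.

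With the middle base left free (GCGCNTGCG), which includes the matches above, 18 of 68 members had a match (26.5%), against 13.7% of tested genes. Members with and without it had nearly equal medians, -0.0997 for 18 and -0.102 for 50. Over tested genes the medians were -0.115 for the 1586 with and 0.0195 for the 10016 without. Letters of 2 other factors known from promoters of mitochondrial genes were searched in the same way. The ETS-type letters CCGGAAGT were present in 12 members (17.6%) against 7.84% of tested genes, and the YY1-type letters AAGATGGCG in 8 members (11.8%) against 3.03%. Members with them had medians of -0.06 and -0.07, and members without them lay lower, at -0.12 and -0.11. Over tested genes the order was the reverse. For the ETS-type letters the medians were -0.0364 for the 910 with and 0.0037 for the 10692 without. For the YY1-type letters they were -0.0125 for the 351 with and near 0 for the 11251 without. A match describes the letters and not binding.

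**Figure D5:**
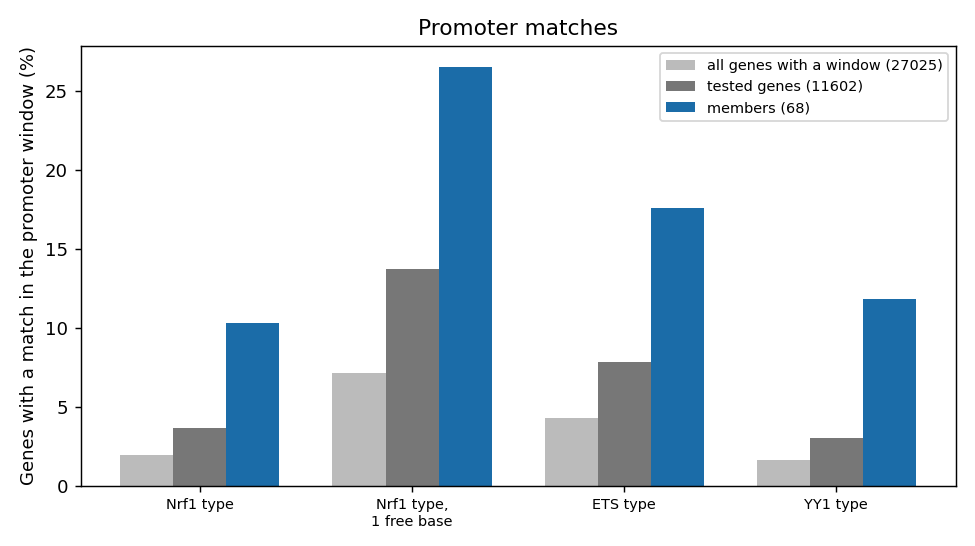
Share of genes (percent) with a match in the RefSeq promoter window, for the Nrf1-type letters, the same with 1 free base, and the ETS-type and YY1-type letters. Bars stand for 27025 genes with a window, 11602 tested genes and 68 members, and the members have the highest share for each of the 4 searches.

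Members are spread over 17 chromosomes, and 18 of them have a coding gene that starts head to head within 1000 bp upstream without overlapping them. None of these 18 neighbours was a member. Head-to-head pairs that overlap were not counted, such as the members Mrps11 (log2 fold change -0.08) and Mrpl46 (-0.01) on chromosome 7, whose genotypes overlapped. Their log2 fold changes were negative for 9 and positive for 9, with a median of 0.01 against -0.09 for the 18 members, and the sign was shared in 11 pairs. By its GENCODE start, Mrpl32 lies 75 bp from Psma2, a proteasome subunit gene, whose log2 fold change was -0.18 (adjusted p = 0.145 from edgeR). Mrps34, with a log2 fold change of 0.24, starts 29 bp from Eme2, which rose with one of 0.48 (adjusted p = 0.0131 from edgeR). Mrpl41 starts 935 bp from Pnpla7, which rose with a log2 fold change of 0.92 (adjusted p = 0.00142 from edgeR). Mrpl41 itself was at 43.9 and 41.7 CPM in wildtype and at 35.4 and 36.1 CPM in the mutant, a log2 fold change of -0.26 (adjusted p = 0.0506). Of the 77 members, 26 overlap another coding gene, Mrpl14 and Mrpl19 among them, and whether the counting used strand is not given in the sources used here, so their counts are less certain.

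Other proteins of the same machinery were compared by lists. Of 7 proteins that belong to the mitoribosome or its membrane partner but carry other symbols, none was called at the study thresholds, and 3 of 7 fell at an adjusted p of at most 0.05, against 8.04% and 10.9% of all tested genes that fell by these rules, with a median log2 fold change of -0.22 over the list. Ict1 (Mrpl58), a large-subunit protein that can release stalled chains, was at 38.0 and 40.0 CPM in wildtype and at 28.5 and 33.1 CPM in the mutant (log2 fold change -0.34, adjusted p = 0.037). Chchd1, of the small subunit, fell with a log2 fold change of -0.33 (adjusted p = 0.023), and Oxa1l, the insertase that receives new chains at the inner membrane, with one of -0.25 (adjusted p = 0.0431; all from edgeR). The other 4 lay between -0.22 and 0.11. These lists were described by their counts and medians only.

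Factors that act on the mitoribosome were not called in the fit of all libraries, and 1 assembly factor was called lower without the second mutant library. For 24 assembly and rRNA factors the median log2 fold change was -0.05, with values from -0.41 for Mtg1, a GTPase of large-subunit assembly, to 0.20 for Trub2. The sign of this median depended on the libraries: it was 0.0268 without the first mutant library, 0.0155 without the second wildtype library and -0.120 without the second mutant library. For 15 translation factors and mRNA-binding proteins, such as the elongation factor gene Tufm at 0.00498, the median was -0.11, and -0.0567 without the first mutant library. Cytosolic ribosomal proteins, a separate set of nuclear genes, had a median of -0.02 over 76 tested genes, which ranged from -0.0898 to 0.0377 with single libraries left out. By the study thresholds 8.04% of all tested genes fell and 12.8% rose. Of the 76 cytosolic genes, 1 fell (Rps27a, log2 fold change -0.66) and 3 rose (Rps29 at 1.19, Rps2 at 0.86 and Rps27 at 0.54). With single libraries left out, 0 to 3 fell and 2 to 5 rose, and since most of these genes have many processed copies, their counts are uncertain.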

How the data were processed

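RNA-seq libraries of E13.5 retinas, 2 wildtype and 2 Nrf1 f/f;Six3-Cre, were grouped by the genotype in their labels. The authors deposited raw read counts per gene, which per the study's methods and the submitters' processing notes were made by alignment to mm10 with TopHat2 2.7.2 and counting with HTSeq. The annotation release and the use of strand are not given in the sources used here. The authors also deposited normalized values on a log2 scale, used only as an alternative, and how they were made is not given in the sources used here. No column was left unmapped. Summary rows, 74.0% to 75.0% of all entries and mostly alignments that were not unique (54.6% to 58.0%), stayed out of library sizes and tests. Genes with close copies therefore lose reads.

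Counts were filtered with filterByExpr (minimum count 10), scaled with TMM factors and tested by quasi-likelihood in edgeR 4.0.16 (R 4.3.3), with genotype as the only term and Benjamini-Hochberg adjustment over 15762 genes. The biological coefficient of variation was 12.0%. Gene reads ranged from 74577660 to 85933945 per library, so precision was limited by 2 libraries a genotype rather than by depth for all but the lowest members. Standard errors and intervals cover the spread between these libraries. Replicates differed beyond sampling noise (chi-square per gene 47.6 and 59.1) and were counted separately.

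A member was called when it changed by 1.4-fold or more with an adjusted p of 0.2 or less, as in the study, and an adjusted p of at most 0.05 was used as a second rule. Genes named are the called members, the 8 lowest and 8 highest among members with an adjusted p of at most 0.05, the 3 highest and lowest per kilobase in each subunit, members of fixed interest and called genes of the other lists. Others named (Mrpl4, Mrpl22, Mrpl39, Mrpl41, Mrpl45, Mrps34, proteins by site, promoter matches, neighbours and the extremes of lists) were chosen after their values were seen. The members and lists were chosen with earlier results of these data known, and the grouping by site was made after the data were seen. Positions and exon lengths come from GENCODE on GRCm38, promoters from RefSeq on GRCm38.p6. Alternatives were DESeq2 1.42.0, the deposited log2 values with limma 3.58.1, other scalings and filters, a replicate block, a test against a 1.4-fold change, and each library left out in turn. The trend on exon length and GC content was removed by local regression (span 0.3) in an alternative added after seeing the data. For differential expression the study's methods name Cuffdiff, which works from alignments and was not repeated, whereas the submitters' processing notes name DESeq and limma.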

Additional observations from a re-analysis of the deposited data

How the results depend on the processing

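The call of Mrpl32 as the lower member held in edgeR with library-size, upper-quartile and RLE scaling, with DESeq2, with no filter, with marker genes left out of the scaling and with the replicate block. At least 10 counts in every library gave 2 lower members, Mrpl23 and Mrpl32, and the deposited log2 values and the test against a 1.4-fold change gave 0. Leaving out 1 library at a time gave 0 to 1: Mrpl32 was lost without the first wildtype library, and without the second mutant library the 1 lower member was Mrpl34. No alternative called a member higher at the study thresholds. At an adjusted p of at most 0.05, 4 lower and 1 higher became 7, with the small-subunit gene Mrps21 among them, and 0 with library size only and 1 and 2 with upper-quartile factors. DESeq2 gave 2 higher, and leaving out a library gave 0 to 5 lower and 0 to 3 higher. With 1 library left in a genotype, that library is assumed to vary like the others.

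The replicate numbers did not pair the libraries: the correlation of replicate differences between genotypes was -0.0166 over 11326 genes. With the replicate block, 6 members were lower and 2 higher at an adjusted p of at most 0.05, and the study thresholds still gave 1 lower.

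The median of the large subunit was -0.0539 on the deposited log2 values, -0.0420 with upper-quartile factors and -0.122 to -0.0671 with a library left out. That of the small subunit ranged from -0.137 to -0.0558 with a library left out, and the difference of large and small from -0.0541 to 0.0425, so its sign depended on the libraries used. With the trend on length and GC removed, the medians were -0.0630 and -0.0597. Upper-quartile factors raised the median of all tested genes from 0.00073 to 0.0403, and this shift turned the sign of Mrps22 (0.0024) and Mrps30 (0.0167), both near 0. Leaving out 1 library at a time, log2 fold changes took both signs for Mrpl12 (-0.0951 to 0.160), Mrpl33 (-0.301 to 0.158), Mrps10 (-0.122 to 0.0303), Mrps12 (-0.321 to 0.117), Mrps18a (-0.192 to 0.0740), Mrps18b (-0.378 to 0.0413), Mrps22 (-0.144 to 0.0615), Mrps30 (-0.0692 to 0.0321), Mrps35 (-0.137 to 0.0402) and Mrps36 (-0.472 to 0.111). This list was drawn only from members called, of fixed interest or of extreme level. Other members near 0, such as Mrpl10 and Mrpl11, were not followed in this way. Except where a library was left out, the causes were not tested. With 2 libraries a genotype, 16 members' intervals still reached a 1.4-fold change.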
